A study of Homo sapiens with 12 samples.

Results

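The genes described here are 10 members of the BCL2 family that decide between survival and death of a cell at its mitochondria, namely BCL2, BCL2L1, MCL1, BCL2A1, BCL2L11, BMF, BBC3, PMAIP1, BAX and BAK1. They were chosen by name, as the genes of the raw count table whose symbol is that of a member, and all 10 were found among the 44659 genes of the table. Each has a single entry, and all 10 passed the limit of 10 normalized reads on average that a gene needed to be tested in either experiment.

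RNA-seq was performed on A375 cells, an established human melanoma line with a mutated BRAF gene, in 2 separate experiments with 3 libraries per group. In the first, the MAPK pathway was blocked over 24 h at 2 steps, with the BRAF inhibitor vemurafenib (500 nM) and the MEK inhibitor cobimetinib (500 nM), which are referred to as MAPKi, and control cells received DMSO, the solvent, for 24 h. In the second, cells were kept for 24 h in medium without glutamine (Gln-depleted) or in the control medium with 2 mM glutamine (CTRL medium). The cells of all 12 libraries were grown in DMEM with 10% serum, and the labels describe cytoplasmic RNA depleted of ribosomal RNA. The labels do not say whether the replicates are separate cultures, so that the p-values measure the spread between these libraries, part of which may be technical.

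BCL2 family proteins control the release of cytochrome c from mitochondria, the step that starts the caspase cascade of intrinsic apoptosis. The anti-apoptotic proteins BCL-2, BCL-XL, MCL-1 and A1 hold the effectors BAX and BAK in check, and the BH3-only proteins BIM, BMF, PUMA and NOXA bind to the anti-apoptotic proteins and free or activate the effectors. In BRAF-mutated melanoma, ERK signalling is known to restrain BIM and BMF, whereas NOXA and PUMA are known as targets of p53 and of the stress factors of the integrated stress response, and A1 as a target of MITF, the master factor of the melanocyte lineage.

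The promoters of BCL2L11, BMF, PMAIP1 and BCL2A1 are shown first, because these members had large or opposite changes in the experiments and their values can be read beside them. Each sequence is the 250 bases before a transcription start in RefSeq (GRCh38.p14), written 5′ to 3′ on the strand of the gene. The capitals mark the letters GTAAACA of the forkhead motif in BCL2L11, TGACG of the cAMP response element in BMF, the same letters read on the other strand (CGTCA) in PMAIP1, and CATGTG, the core of the M-box read by MITF, in BCL2A1.
BCL2L11, chr2:111120664-111120913, plus strand: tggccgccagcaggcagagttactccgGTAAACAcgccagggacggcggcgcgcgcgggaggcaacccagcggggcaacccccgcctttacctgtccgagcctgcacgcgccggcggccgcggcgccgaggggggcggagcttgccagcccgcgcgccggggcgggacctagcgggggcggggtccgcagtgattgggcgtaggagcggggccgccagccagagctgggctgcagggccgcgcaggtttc
BMF, chr15:40108880-40109129, minus strand: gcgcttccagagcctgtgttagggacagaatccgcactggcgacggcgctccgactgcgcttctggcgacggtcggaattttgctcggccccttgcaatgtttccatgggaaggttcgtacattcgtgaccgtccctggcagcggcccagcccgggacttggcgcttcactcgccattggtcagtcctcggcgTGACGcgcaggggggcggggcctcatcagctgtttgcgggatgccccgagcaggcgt
PMAIP1, chr18:59899746-59899995, plus strand: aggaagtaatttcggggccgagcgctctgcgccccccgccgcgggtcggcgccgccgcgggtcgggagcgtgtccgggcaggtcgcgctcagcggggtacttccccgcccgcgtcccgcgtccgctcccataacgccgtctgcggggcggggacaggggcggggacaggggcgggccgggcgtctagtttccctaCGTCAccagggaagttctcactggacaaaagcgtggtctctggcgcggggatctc
BCL2A1, chr15:79971197-79971446, minus strand: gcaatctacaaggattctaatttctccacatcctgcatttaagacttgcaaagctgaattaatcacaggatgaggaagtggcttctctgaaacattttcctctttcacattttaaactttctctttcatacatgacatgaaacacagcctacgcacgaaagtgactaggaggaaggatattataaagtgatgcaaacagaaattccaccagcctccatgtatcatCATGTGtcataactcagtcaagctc

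The forkhead letters of BCL2L11 lay from 223 to 217 bases before the start, and were found on either strand in 2.98% of the 35116 human promoters of this length. TGACG lay from 57 to 53 bases before the start of BMF and from 55 to 51 before that of PMAIP1, which changed in opposite directions in the data below, and 21.2% of all promoters held it. CATGTG lay from 25 to 20 bases before the start of BCL2A1, and 9.42% of all promoters held it. RefSeq entries were matched for 9 of the 10 members, with 11 promoters. Among them TGACG also occurred in BAX, BCL2 and BCL2L1, and the E-box CACGTG (6.34% of all promoters) in BAX and BBC3. The AP-1 motif TGANTCA (6.57%) occurred in BBC3, and TGATGNAA (3.14%), the composite motif of ATF4 and CEBP factors, only in BCL2A1. The CACGTG letters were present at 4 places in the BAX promoter, and 1 of them overlapped TGACG. These matches describe letters in a window and do not show that a factor was bound.

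The libraries held from 31056296 to 40071368 counted reads, with a median of 35748567, and no pair of replicates agreed within sampling noise. Replicates differed far more in the Gln depletion experiment (a chi-square of 41.2 to 228 per degree of freedom) than with MAPKi or DMSO (3.52 to 15.7), and its replicate 1 belongs to another experimental batch than replicates 2 and 3. All 11 melanoma markers examined had reads in every group, with a summed level, in counts scaled to library size (CPM), from 1585 to 1648 with DMSO, 9223 to 11130 with MAPKi, 1220 to 1529 in CTRL medium and 852 to 883 without Gln. With MAPKi, 9 of the 11 rose and 1 fell. Most of the rise of the sum was that of DCT, a pigment enzyme gene, from a mean normalized count of 7068 to 271950 (log2 fold change of 5.27, edgeR, adjusted p = 3.8e-09). The marker that fell was S100B, named after its value was seen, by 2.14 on the log2 scale (edgeR, adjusted p = 1.2e-09). Without Gln, 2 rose and 2 fell, and 2 rose and 6 fell with the replicate number as a block. Of 12 markers of other cell types, 4 or 5 per group reached 10 reads in a library and 3 to 5 were at 0. Their sum was 67.3 to 76.8 CPM with DMSO, 413 to 420 with MAPKi, 47.2 to 70.7 in CTRL medium and 37.2 to 51.8 without Gln. CD68, a lysosomal gene of macrophages that other cells express as well, rose by 2.72 on the log2 scale with MAPKi (edgeR, adjusted p = 7.0e-10), from a mean normalized count of 2112 to 13936, and made up most of the rise of this sum. PTPRC, which marks leukocytes, fell by 1.82 (adjusted p = 0.0038), on 14 to 17 reads per DMSO library and 3 to 6 per MAPKi library. VWF, an endothelial marker, and COL1A1, a fibroblast marker, rose by 0.86 and 0.82 with MAPKi (edgeR, adjusted p = 2.8e-05 and 0.0045). PDGFRA, the last of the 5 tested, was not called (-0.15, adjusted p = 0.444). Without Gln, 4 of these markers were tested and only PDGFRA was called, with a rise of 1.31 (edgeR, adjusted p = 0.0083). With the replicate number as a block, COL1A1 also fell there (-1.41, adjusted p = 0.0199), on 4 to 15 reads per Gln-depleted library. The part of other cells in the results was not tested. In bulk RNA, fewer cells that express a gene and less RNA per cell cannot be told apart.

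In MAPKi-treated cells, 9 of the 10 members changed as compared to DMSO. Of these, 6 were upregulated and 3 were downregulated in edgeR's quasi-likelihood test, with 0.05 as the limit of the adjusted p and 12594 protein-coding genes in the fit. In the same test, 78.3% of all genes changed, 38.4% upwards and 39.8% downwards, so that a count of 9 in 10 is near what the table as a whole shows. The sizes of the changes were larger than usual, with a median absolute log2 fold change of 1.40 over the members and of 0.53 over all tested genes. The members were chosen with earlier results of these data known, so that these medians only describe them. When the change had to exceed the fold-change limit of the study's methods, 5 members were higher and 2 were lower, beside 16.7% and 18.8% of all genes and 35.5% in either direction. The groups did not overlap for 9 members, as for 80.7% of all genes.

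The anti-apoptotic members did not move together with MAPKi. BCL2 (ENSG00000171791, chromosome 18, 63123346 to 63320128 in GRCh38, minus strand), the founding member of the family, had normalized read counts of 1012, 947 and 905 in the DMSO libraries and of 304, 256 and 269 in the MAPKi libraries. All 3 MAPKi libraries lay below all DMSO libraries. BCL2 was downregulated with a log2 fold change of -1.79 (standard error 0.08, edgeR, adjusted p = 3.4e-08), which is a larger change than that of 90.8% of the tested genes.

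BCL2L1 (ENSG00000171552, chromosome 20, 31664452 to 31723989), which encodes BCL-XL, had normalized counts of 837, 860 and 829 with DMSO and of 1882, 1882 and 1799 with MAPKi, with no overlap between the groups. It was upregulated by 1.14 on the log2 scale (standard error 0.05, edgeR, adjusted p = 1.6e-08). The lncRNA ABALON overlaps 41.3% of its exons on the opposite strand, but had from 42 to 134 reads in a library. The strand setting of the counting is not given in the sources used here, and BCL-XL and its short splice form are counted together.

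BCL2A1 (ENSG00000140379, chromosome 15, 79960892 to 79971196), which encodes A1, had normalized counts of 338, 326 and 395 with DMSO and of 998, 1092 and 1059 with MAPKi. The groups lay far apart, and the log2 fold change was 1.57 (standard error 0.08, edgeR, adjusted p = 7.9e-08). MITF, whose product is known to read such letters as those marked in the BCL2A1 promoter, was also higher with MAPKi, with a mean normalized count of 23490 as compared to 13810 and a log2 fold change of 0.77 (edgeR, adjusted p = 1.4e-07). Whether these changes are linked was not tested.

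MCL1 (ENSG00000143384, chromosome 1, 150560895 to 150579738), whose protein is short-lived, was the only member not called with MAPKi. Its normalized counts were 6060, 6482 and 6217 with DMSO and 6216, 6210 and 6276 with MAPKi, and the MAPKi values lay within the range of the DMSO values. The log2 fold change was 0.00 (standard error 0.04, edgeR, adjusted p = 0.929), and its 95% confidence interval went from -0.10 to 0.09. A correction for GC content together with the replicate block gave 0.11 (adjusted p = 0.0257).

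Among the BH3-only members, 3 were upregulated and PMAIP1 was downregulated with MAPKi. BMF (ENSG00000104081, chromosome 15, 40087890 to 40108892, minus strand), whose protein is held at the cytoskeleton in healthy cells, had normalized counts of 719, 707 and 801 with DMSO and of 10963, 11009 and 10822 with MAPKi. The MAPKi libraries had a coefficient of variation of 0.9%. With a log2 fold change of 3.88 (standard error 0.06, edgeR, adjusted p = 9.8e-11), BMF rose 14.7-fold, more than any other member, and changed more than 98.8% of the tested genes.

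BCL2L11 (ENSG00000153094, chromosome 2, 111119378 to 111168444, plus strand), which encodes BIM, had normalized counts of 630, 591 and 567 with DMSO and of 1792, 1932 and 2020 with MAPKi, without overlap. It was upregulated by 1.68 on the log2 scale (standard error 0.06, edgeR, adjusted p = 1.0e-08). The lncRNA MIR4435-2HG, which overlaps 10.8% of its exons on the opposite strand, went the other way, from 2238, 2456 and 2604 reads with DMSO to 337, 314 and 416 with MAPKi. Its part in the BCL2L11 counts was not tested. The 3 FOXO genes of the list of transcription factors are named here after their values were seen. With MAPKi, FOXO3 and FOXO4 rose by 0.74 and 0.92 on the log2 scale (edgeR, adjusted p = 1.3e-06 and 8.1e-07), and FOXO1 fell by 0.27 (adjusted p = 4.8e-04). Without Gln, FOXO3 (0.54), FOXO4 (0.15) and FOXO1 (-0.39) were not called (edgeR, adjusted p = 0.0665, 0.707 and 0.184). With the replicate block, FOXO3 (0.54, adjusted p = 0.0076) and FOXO1 (-0.39, adjusted p = 0.0304) were called there. A link of the FOXO genes with BCL2L11 was not tested.

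BBC3 (ENSG00000105327, chromosome 19, 47220822 to 47232766, minus strand), which encodes PUMA, had normalized counts of 453, 371 and 419 with DMSO and of 1067, 938 and 904 with MAPKi. It was upregulated with a log2 fold change of 1.23 (standard error 0.09, edgeR, adjusted p = 1.0e-06) and no overlap.

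PMAIP1 (ENSG00000141682, chromosome 18, 59899996 to 59904305, plus strand), which encodes NOXA, a partner of MCL-1 and A1, had normalized counts of 403, 288 and 305 with DMSO and of 50.7, 39.9 and 40.6 with MAPKi. Its log2 fold change of -2.92 (standard error 0.17, edgeR, adjusted p = 1.9e-07) was the strongest fall among the members. It was thus the only BH3-only member that was lower with MAPKi.

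The effectors changed little. BAX (ENSG00000087088, chromosome 19, 48954815 to 48961798) had normalized counts of 2325, 2333 and 2265 with DMSO and of 1830, 1792 and 1853 with MAPKi, a log2 fold change of -0.34 (standard error 0.04, edgeR, adjusted p = 2.4e-05). BAK1 (ENSG00000030110, chromosome 6, 33572547 to 33580293) went the other way, from 1455, 1480 and 1402 to 1713, 1874 and 1818, a log2 fold change of 0.32 (standard error 0.05, edgeR, adjusted p = 2.0e-04). The groups did not overlap for either gene, but neither change exceeded the fold-change limit of the study's methods, and both lost the call when all 12 libraries were fitted together (adjusted p = 0.114 for BAX and 0.0661 for BAK1).

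**Figure D1:**
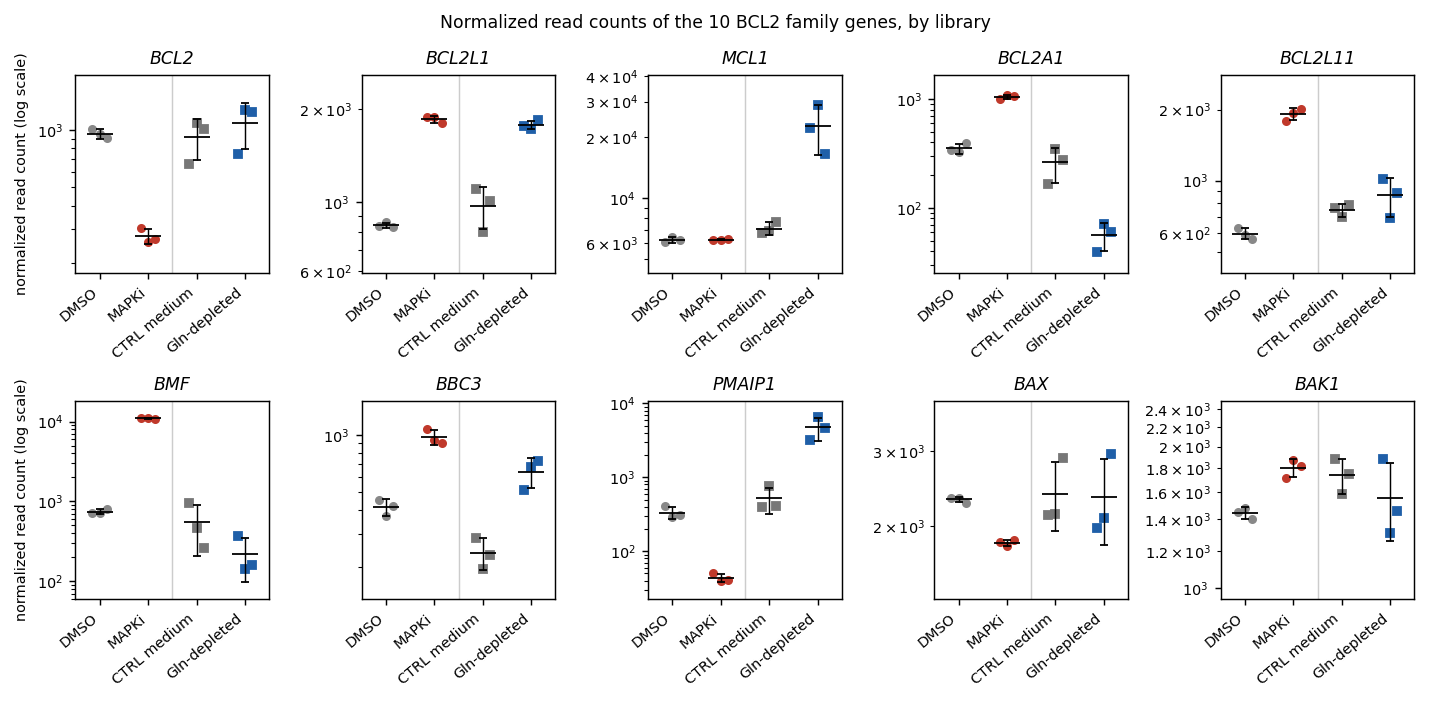
Normalized read count (log axis) of each of the 10 genes in the 12 libraries. Each symbol is a library, the black bar is the mean and the whiskers are 1 SD (n = 3), and the grey line separates the experiments, which were normalized apart. BMF stands between 10822 and 11009 in all MAPKi libraries, and PMAIP1 between 3190 and 6457 in all Gln-depleted libraries.

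With Gln depletion, 5 of the 10 members changed as compared to CTRL medium, 4 upwards and 1 downwards, beside 17.9% of the 12513 tested genes (9.48% upwards and 8.44% downwards). The median absolute log2 fold change was 1.09 over the members and 0.45 over all tested genes, with the same limit from the choice of the members. Against the fold-change limit of the study's methods, 3 members were higher and 1 was lower, beside 3.48% and 2.10% of all genes and 5.59% in either direction. Libraries with the same replicate number deviated together in this experiment, and with the replicate number as a block 4 members were higher and 2 were lower, beside 25.1% and 23.8% of all genes and 48.9% in either direction. The groups did not overlap for 5 members, and for 39.9% of all genes.

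MCL1 led the anti-apoptotic members. Its normalized counts were 6720, 6891 and 7684 in CTRL medium and 22273, 29007 and 16593 without Gln, so that every Gln-depleted library was far above the highest control. The log2 fold change was 1.67 (standard error 0.24, edgeR, adjusted p = 0.0040), and it was 1.73, 2.07 and 1.11 in the pairs of replicates 1, 2 and 3. BCL2L1 had normalized counts of 1102, 803 and 1005 in CTRL medium and of 1766, 1723 and 1838 without Gln, and rose by 0.87 on the log2 scale (standard error 0.19, edgeR, adjusted p = 0.0196). This call was lost in 4 of the 6 fits with a library left out, although the groups did not overlap. These were the fits without CTRL medium replicate 2 or 3 or without Gln-depleted replicate 2 or 3 (adjusted p up to 0.0826). The fits with a library left out did not use the pairing. Within the pairs BCL2L1 rose by 0.68, 1.10 and 0.87, and with the replicate block by 0.88 (edgeR, adjusted p = 0.0013).

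BCL2A1 was the only member that fell without Gln in the fit without the block. It had normalized counts of 164, 348 and 273 in CTRL medium and of 38.8, 70.2 and 59.4 without Gln, with a log2 fold change of -2.22 (standard error 0.38, edgeR, adjusted p = 0.0083) and of -2.08, -2.31 and -2.20 within the pairs. MITF was lower too, with a mean normalized count of 2121 as compared to 10761 (log2 fold change of -2.34, edgeR, adjusted p = 0.0029). BCL2 had 665, 1083 and 1018 normalized counts in CTRL medium and 746, 1274 and 1240 without Gln. These values overlapped, and the log2 fold change of 0.24 did not pass the test (edgeR, adjusted p = 0.59, 95% confidence interval -0.41 to 0.88).

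Of the BH3-only members, PMAIP1 changed most. Its normalized counts were 400, 751 and 412 in CTRL medium and 3190, 6457 and 4593 without Gln, far above all controls. The log2 fold change was 3.19 (standard error 0.36, edgeR, adjusted p = 0.0019), a 9.11-fold rise that was larger than the change of 99.1% of the tested genes. BBC3 went from 285, 194 and 233 to 512, 674 and 728, with a log2 fold change of 1.43 (standard error 0.25, edgeR, adjusted p = 0.0086). Within the pairs the change of BBC3 was 0.84 in experimental batch 1 and 1.79 and 1.65 in batch 2.

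BMF, the member that rose most with MAPKi, was lower without Gln in each pair, although the groups overlapped. Its normalized counts were 943, 459 and 264 in CTRL medium and 365, 143 and 159 without Gln, so that the controls alone ranged from 264 to 943. The log2 fold change of -1.32 did not pass the test (standard error 0.52, edgeR, adjusted p = 0.113). With the replicate block, which compares libraries of the same number, it was -1.27 (adjusted p = 0.0023), and in experimental batch 2 alone, a fit added after the data were seen, it was -1.26 (adjusted p = 0.0228). Without CTRL medium replicate 1, the highest control, the log2 fold change was -0.70 and did not pass the test (edgeR, adjusted p = 0.319). BCL2L11 had 768, 698 and 790 normalized counts in CTRL medium and 1017, 693 and 888 without Gln. The groups overlapped, and the log2 fold change was 0.20 (edgeR, adjusted p = 0.524, 95% confidence interval -0.27 to 0.68).

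No change of the effectors was detected without Gln. BAX had 2126, 2128 and 2891 normalized counts in CTRL medium and 1976, 2088 and 2958 without Gln, with a log2 fold change of -0.03 (edgeR, adjusted p = 0.950, 95% confidence interval -0.56 to 0.51). BAK1 had 1880, 1583 and 1750 in CTRL medium and 1880, 1313 and 1461 without Gln, with a log2 fold change of -0.16 (edgeR, adjusted p = 0.604, 95% confidence interval -0.63 to 0.30). The change that BAX had with MAPKi lies within its interval, and that of BAK1 (0.32) lies just outside. These intervals come from the fit without the block and include the spread between pairs. Within the pairs of replicates 1, 2 and 3, BAX changed by -0.11, -0.03 and 0.03, and BAK1 by 0.0, -0.27 and -0.26.

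**Figure D2:**
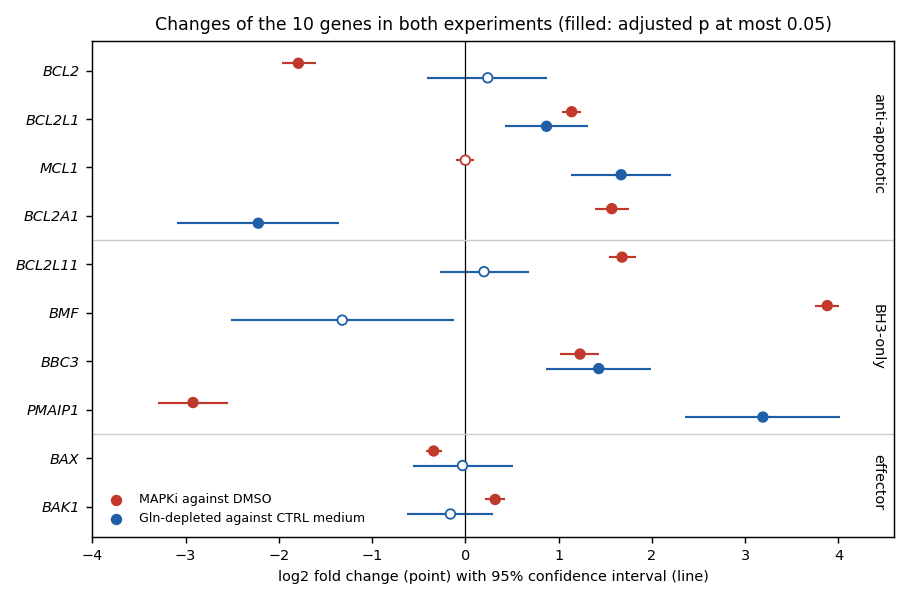
Log2 fold change of each gene with MAPKi (red) and with Gln depletion (blue), with lines for the 95% confidence interval from edgeR and filled points for an adjusted p of at most 0.05. BCL2A1 and PMAIP1 lie on opposite sides of 0 in the 2 experiments, and the intervals are wider with Gln depletion.

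Because the experiments share no library, the change with MAPKi could be compared with the change without Gln in a single fit of the 12 libraries. The change differed for 7 of the 10 members, beside 40.6% of 12626 tested genes, and for 6 of them by more than the fold-change limit, beside 22.3%. PMAIP1 differed most, with -6.05 on the log2 scale (standard error 0.45, edgeR, adjusted p = 1.7e-06), where a negative value means a lower change with MAPKi. BMF followed with 5.26 (standard error 0.62, adjusted p = 5.3e-05), or 4.62 without CTRL medium replicate 1, and BCL2A1 with 3.84 (standard error 0.37, adjusted p = 1.2e-05). PMAIP1 and BCL2A1 changed in opposite directions and passed the test in each experiment, and BMF did so in some of the fits, that with the replicate block among them.

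For BCL2 the difference was -1.97 (edgeR, adjusted p = 3.5e-04), for MCL1 -1.62 (adjusted p = 2.1e-04) and for BCL2L11 1.54 (adjusted p = 1.0e-04), and each of these passed the test in a single experiment. BAK1 differed by 0.54 (adjusted p = 0.0451), a call that was lost in 10 of the 12 fits with a library left out. With the replicate block, its difference was 0.55 (edgeR, adjusted p = 0.0024). The difference was not detected for BCL2L1 (0.32, adjusted p = 0.158, 95% confidence interval -0.05 to 0.70; without CTRL medium replicate 2, 0.43 and adjusted p = 0.0359), which was upregulated in both experiments, or for BBC3 (-0.14, adjusted p = 0.689, 95% confidence interval -0.69 to 0.41), which was upregulated in both as well. For BAX it was -0.26 (adjusted p = 0.390).

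Levels of different genes were compared per length, as reads per kilobase of exon scaled to library size (RPKM), and are means over 3 libraries. With DMSO, MCL1 was the most abundant member (29.8 ± 0.905, SD, n = 3), followed by BAX (26.5 ± 0.324), BAK1 (19.4 ± 0.446), BCL2A1 (10.5 ± 1.14) and BCL2L1 (5.95 ± 0.0829). PMAIP1, BMF and BBC3 had levels from 3.86 to 4.51, in an order in which neighbours overlapped, and BCL2L11 (2.62 ± 0.138) and BCL2 (2.24 ± 0.125) were lowest. With MAPKi, BMF came first (60.0 ± 0.738), BCL2A1 (31.5 ± 1.34) and MCL1 (30.0 ± 0.117) were next to each other with ranges that barely missed each other, and BCL2 (0.655 ± 0.0616) and PMAIP1 (0.599 ± 0.0850) were last and overlapped. BAK1 (24.4), BAX (21.1), BCL2L1 (13.2), BBC3 (9.11) and BCL2L11 (8.49) stood between, of which only the last pair overlapped.

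In CTRL medium the order was MCL1 (34.1 ± 1.81), BAX (27.5 ± 4.56), BAK1 (23.5 ± 2.27), BCL2A1 (7.84 ± 2.71), PMAIP1 (7.12 ± 2.73), BCL2L1 (6.91 ± 1.14), BCL2L11 (3.33 ± 0.205), BMF (3.07 ± 1.99), BBC3 (2.23 ± 0.461) and BCL2 (2.18 ± 0.505). Neighbours overlapped except for MCL1 and BAX, BAK1 and BCL2A1, and BCL2L1 and BCL2L11. Without Gln, MCL1 (105 ± 28.4) and PMAIP1 (62.8 ± 21.4) led and overlapped, BAX (26.2 ± 6.07), BAK1 (20.3 ± 3.93) and BCL2L1 (12.3 ± 0.446) followed, and BCL2 (2.49 ± 0.671), BCL2A1 (1.63 ± 0.458) and BMF (1.19 ± 0.664) were lowest with overlapping neighbours. BBC3 (5.80 ± 1.01) and BCL2L11 (3.72 ± 0.716) lay between, apart from their neighbours. The order depends on the length taken for a gene. Per length of the longest coding sequence, BCL2A1 stood at rank 9 of the members with DMSO and at rank 7 with MAPKi, while MCL1 with DMSO and BMF with MAPKi remained first. BCL2, lowest per exon length with DMSO, stood at rank 5 per coding length.

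Summed over their members, the 4 BH3-only genes made up 13.7% ± 1.15 (SD, n = 3) of the level of all 10 members with DMSO and 39.3% ± 0.605 with MAPKi, and 13.4% ± 2.78 in CTRL medium and 30.2% ± 5.03 without Gln. Different genes made up this level in the experiments. BMF took 76.7% ± 0.398 of the BH3-only level with MAPKi, as compared to 27.0% ± 2.79 with DMSO, and PMAIP1 took 84.5% ± 5.13 without Gln, as compared to 44.9% ± 12.7 in CTRL medium. PMAIP1 was down to 0.765% ± 0.0998 of this level with MAPKi, and BMF to 1.87% ± 1.55 without Gln. Per coding length the BH3-only share of BMF was 84.9% ± 0.218 with MAPKi, and that of PMAIP1 went from 37.3% ± 12.3 in CTRL medium to 82.9% ± 6.66 without Gln.

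The anti-apoptotic members shifted as well. Per exon length, their summed level was 48.5 ± 1.156 with DMSO and 75.4 ± 1.165 with MAPKi. It was 51.0 ± 3.095 in CTRL medium and 121.6 ± 28.2 without Gln. The anti-apoptotic share of the level of all members was 44.4% with DMSO and 37.9% with MAPKi. That share was 43.3% in CTRL medium and 50.1% without Gln, so that it rose there beside the BH3-only share. MCL1 held 61.4% ± 1.60 of their summed level with DMSO and 39.8% ± 0.756 with MAPKi, where BCL2A1 went from 21.7% ± 2.01 to 41.8% ± 1.18. The level of MCL1 itself was 29.8 with DMSO and 30.0 with MAPKi, while BCL2A1 went from 10.5 to 31.5 and BCL2L1 from 5.95 to 13.2. Without Gln, MCL1 held 86.0% ± 3.77 as compared to 66.9% ± 2.73 in CTRL medium, and BCL2A1 1.38% ± 0.441 as compared to 15.3% ± 4.79. Per length of the longest coding sequence, MCL1 held 68.2% ± 1.04 with DMSO and 57.7% ± 0.529 with MAPKi, and BCL2A1 went from 7.70% ± 0.856 to 19.4% ± 0.785, so that by this length BCL2A1 stayed below MCL1. The summed level of the effectors was 45.8 ± 0.759 with DMSO and 45.5 ± 0.815 with MAPKi, and 50.9 ± 4.93 in CTRL medium and 46.6 ± 6.02 without Gln. The effector share went from 41.9% with DMSO to 22.8% with MAPKi, and from 43.2% in CTRL medium to 19.8% without Gln. These sums describe mRNA and not protein.

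**Figure D3:**
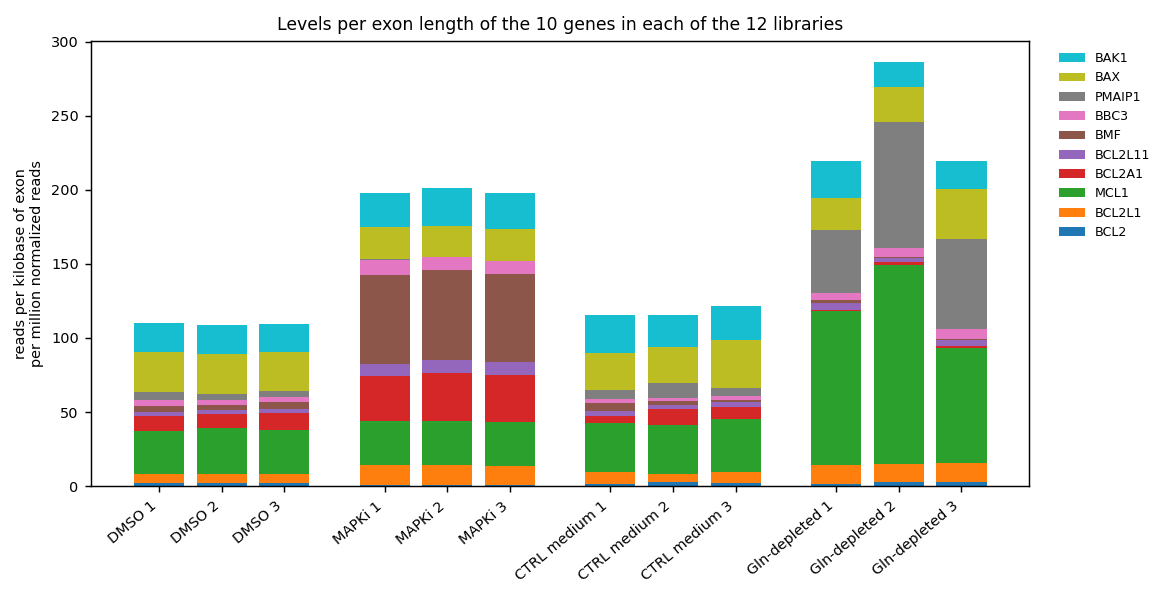
Level per exon length (RPKM) of the 10 genes, stacked for each of the 12 libraries. BMF (brown) fills most of the BH3-only level in the MAPKi libraries, and MCL1 (green) and PMAIP1 (grey) grow in the Gln-depleted libraries.

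The genes whose pattern over the 12 libraries was most like that of BMF were CITED1, MYLK and IFITM10, with root-mean-square differences of 0.33, 0.42 and 0.47 on the log2 scale, out of 12625 genes compared. CITED1 had log2 fold changes of 4.02 with MAPKi and -1.05 without Gln, and MYLK of 3.92 and -0.64, whereas the nearest other member was BCL2L11 at 1.39. For PMAIP1 they were KLF4, SLC7A11 and CHAC1, at 0.47, 0.47 and 0.49, with BCL2 as the nearest member at 1.60. CHAC1, which encodes an enzyme that degrades glutathione, had log2 fold changes of -2.95 and 3.32, SLC7A11, which encodes the cystine transporter, of -2.16 and 3.50, and KLF4, a transcription factor gene, of -2.46 and 3.82. IFITM10 rose by 3.76 with MAPKi and had too few reads to be tested without Gln.

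Of 13 other BCL2 family genes, 10 were tested with MAPKi, and 7 were upregulated and 3 downregulated. HRK, another BH3-only gene, had normalized counts of 164, 159 and 147 with DMSO and of 1487, 1271 and 1309 with MAPKi, a log2 fold change of 3.11 (standard error 0.08, edgeR, adjusted p = 1.5e-09). It also rose without Gln, from 99.4, 187 and 257 to 559, 656 and 749 (log2 fold change of 1.85, edgeR, adjusted p = 0.0112). BCL2L2, which encodes the anti-apoptotic BCL-W, rose by 0.60 with MAPKi and by 1.43 without Gln (edgeR, adjusted p = 1.1e-05 and 0.0070). BOK, an effector-like gene, rose by 0.69 and BAD by 0.36 with MAPKi, BID fell by 0.40, and BCL2L12 fell by 1.05 (edgeR, adjusted p of 3.6e-04 or less). BIK rose by 2.09 (adjusted p = 9.1e-04), on 3 to 5 reads per DMSO library and 16 to 19 per MAPKi library. Without Gln only HRK and BCL2L2 passed in the fit without the block, and BOK (0.19), BAD (-0.56), BID (-0.44) and BIK (1.41) did not. With the replicate block, 4 genes rose and 4 fell. Among them were BAD (-0.58, edgeR, adjusted p = 0.0165), BID (-0.44, adjusted p = 0.0268) and BIK (1.47, adjusted p = 0.047), whereas BOK (0.18, adjusted p = 0.467) was not called. BIK had 4 to 15 reads per CTRL medium library and 14 to 29 per Gln-depleted library.

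Of 17 genes of the apoptosome, caspases and IAPs, 7 rose and 5 fell with MAPKi, with a median log2 fold change of -0.04, and 1 fell without Gln (4 rose and 5 fell with the block). APAF1, which encodes the scaffold of the apoptosome, fell by 1.41 with MAPKi and by 0.83 without Gln (edgeR, adjusted p = 1.1e-08 and 0.0188). ENDOG, which encodes a mitochondrial endonuclease, rose by 1.74 with MAPKi and BIRC5, which encodes the IAP survivin, fell by 1.22 (edgeR, adjusted p = 3.7e-08 and 1.2e-07). Of 9 tested genes of the death receptor pathway, 6 rose and 3 fell with MAPKi, and 2 rose without Gln (3 rose and 2 fell with the block). TNFRSF10B, which encodes the TRAIL receptor DR5, rose by 0.38 with MAPKi and by 2.07 without Gln (edgeR, adjusted p = 7.0e-04 and 0.0033), and CFLAR, which encodes the caspase-8 inhibitor FLIP, by 1.40 with MAPKi (adjusted p = 2.5e-09). The TRAIL decoy receptor gene TNFRSF10C rose by 2.91 with MAPKi, from a mean normalized count of 19.5 to 147, and TNFRSF10A, which encodes the TRAIL receptor DR4, fell by 1.27 (edgeR, adjusted p = 3.1e-06 and 0.0015). TNFRSF1A, which encodes a TNF receptor, rose by 0.91 with MAPKi and by 0.90 without Gln (edgeR, adjusted p = 5.3e-07 and 0.0302).

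Among the factors that regulate the members, 8 of 15 transcription factors rose and 6 fell with MAPKi, and 3 of 14 rose and 3 fell without Gln (4 and 5 with the block). The largest changes with MAPKi were those of MYC (-4.08) and E2F1 (-2.87), which drive growth and the cell cycle, and of the AP-1 gene JUN (2.04), with edgeR's adjusted p of 6.0e-06 or less. Without Gln they were those of DDIT3, MITF and ATF4. MYC fell by 0.96 and JUN rose by 1.62 there too (edgeR, adjusted p = 0.0367 and 0.0082), and E2F1 (-0.36, adjusted p = 0.339) was not called. ATF4, the factor of the integrated stress response, was lower with MAPKi (log2 fold change of -0.76, edgeR, adjusted p = 6.4e-06) and higher without Gln (1.90, adjusted p = 0.0019). DDIT3, its target and partner, rose by 0.28 with MAPKi (adjusted p = 0.0178) and by 2.70 without Gln (adjusted p = 0.0025). A link of either with PMAIP1, or with BCL2A1, whose promoter held the composite motif, was not tested. Of 11 partners and turnover factors of the proteins, 2 rose and 7 fell with MAPKi, and 1 rose without Gln (4 rose and 3 fell with the block).

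Of 9 tested p53 targets other than the members, 7 rose and 1 fell with MAPKi, with a median of 0.57, and 2 rose and 1 fell without Gln (4 and 2 with the block). All 13 tested MAPK pathway targets fell with MAPKi (median -3.65). Of 14 tested without Gln, 6 rose and none fell (median 0.83), and 13 rose and none fell with the block. Of 9 tested amino acid response genes, 3 rose and 6 fell with MAPKi (median -0.67), and all 9 rose without Gln (median 2.70). The median of all tested genes was -0.01 with MAPKi and 0.00 without Gln.

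**Figure D4:**
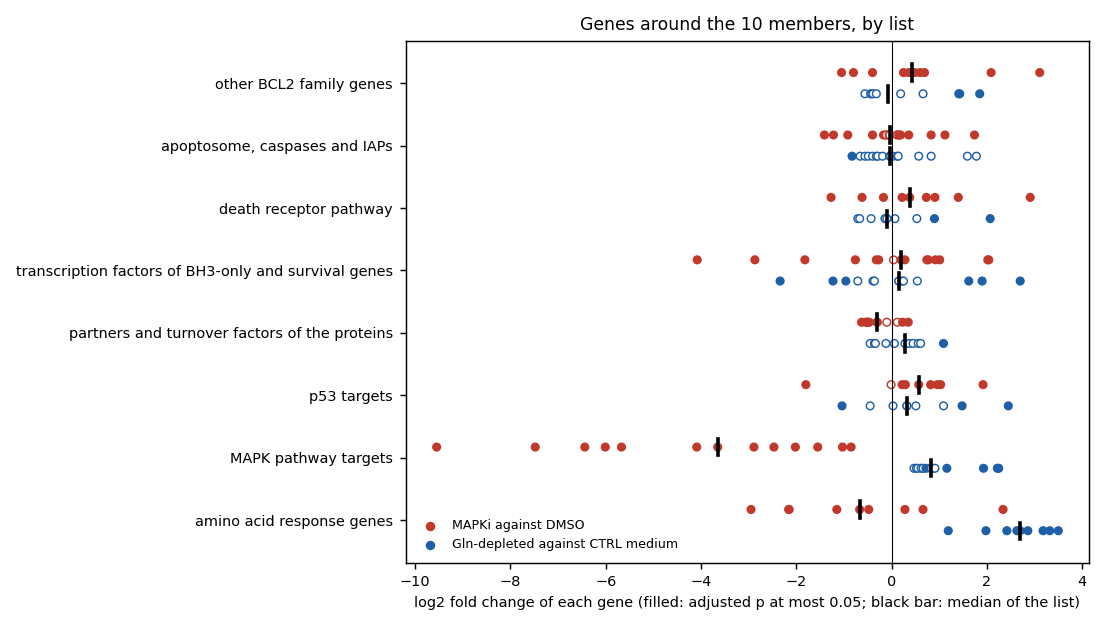
Log2 fold change of the tested genes of 8 lists around the members, with MAPKi (red) and with Gln depletion (blue). Filled points have an adjusted p of at most 0.05, and black bars are medians of a list. The MAPK pathway targets lie below 0 with MAPKi, and the amino acid response genes above 0 without Gln.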

How the data were processed

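The deposited table holds raw counts, the number of reads on exons of each of 44659 genes. Per the labels and the study's methods, the authors trimmed the reads with fastp 0.20.1, aligned them to GRCh38.p13 with HISAT2 2.2.1 and counted them with HTSeq 0.13.5. The labels describe RNA from a cytoplasmic fraction, and the RNA-seq section of the methods total RNA. Every column was used.

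Symbols were matched to RefSeq (36522 by symbol, 513 by an older one, 5084 further copies kept apart, 2540 unmatched), and coordinates and exon lengths come from GENCODE. Counts were tested with edgeR 4.0.16 in R 4.3.3 (TMM factors from 0.977 to 1.03 with MAPKi and from 0.931 to 1.07 with Gln depletion, quasi-likelihood test, Benjamini-Hochberg adjustment over all tested genes) on protein-coding genes whose normalized count was 10 or more on average, within each experiment, and over the 12 libraries for the difference. No set test was run. The fold-change limit is that of the study's methods. Calls are against no change at an adjusted p of 0.05. The libraries held 31056296 to 40071368 reads, and for members with few reads, such as PMAIP1 with MAPKi, counting error adds to the spread between replicates. The procedure was tested on simulated data. Tables and figures were made with Python 3.11.15, numpy 2.4.6, pandas 2.3.3 and matplotlib 3.10.9.

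The members and lists were chosen with earlier results of these data known. Named were the 10 members, 6 other core family genes, from each list at most the 3 called genes with the largest changes per experiment (genes of the lists of partners, p53 targets, MAPK targets and amino acid response are given by counts, apart from those chosen for likeness), and the 3 genes most like the members with the largest rise and fall with MAPKi. The FOXO genes, S100B, VWF, COL1A1 and PDGFRA were named after their values were seen.

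Replicate numbers come from the sample titles. The deviations of libraries from their group means were correlated across genes. For same-numbered libraries the correlation was 0.584, 0.441 and 0.386 in the Gln depletion experiment, so its numbers pair the libraries. In the MAPKi experiment it was 0.073, 0.056 and 0.056, positive but weak. Between different numbers it went there from -0.039 to -0.017. Alternatives were DESeq2's size factors, DESeq2 1.42.0, the fold-change limit, other count limits, all genes, an adjusted p of 0.01, the replicate block, a GC correction, both, all 12 libraries in 1 fit, each library left out, and, added after the data were seen, experimental batch 2 alone.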

Additional observations from a re-analysis of the deposited data

Results flagged for a closer look

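The change with MAPKi differed from the change with Gln depletion, by edgeR's test of the difference over the 12 libraries, for 7 of the 10 members, beside 40.6% of the 12626 tested genes. The differences, MAPKi minus Gln depletion on the log2 scale, were -6.05 for PMAIP1, 5.26 for BMF, 3.84 for BCL2A1, -1.97 for BCL2, -1.62 for MCL1, 1.54 for BCL2L11 and 0.54 for BAK1. PMAIP1 and BCL2A1 passed the test in each experiment in opposite directions. The value of BAK1 kept its call in 2 of the 12 fits with a library left out, and the others in all 12.

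Of the other genes named, the difference was called for BAD (0.97), BCL2L2 (-0.78), HRK (1.31), BCL2L12 (-0.57), APAF1 (-0.52), TNFRSF10B (-1.63), CFLAR (0.92), ATF4 (-2.60), DDIT3 (-2.36), MITF (3.16), FOXO4 (0.83), MYC (-3.06), E2F1 (-2.46), ENDOG (2.30), BIRC5 (-0.87), TNFRSF10C (3.67), DCT (6.29), S100B (-1.71) and CD68 (3.37). The difference was also called for the markers COL1A1 (2.24) and PDGFRA (-1.41). HRK rose in both experiments and more with MAPKi, and MITF and ATF4 changed in opposite directions. The genes chosen for their likeness to BMF or PMAIP1 shared the difference by that choice, with 5.13 for CITED1, 4.62 for MYLK, 4.34 for IFITM10, -6.23 for KLF4, -5.61 for SLC7A11 and -6.21 for CHAC1. Groups of 3 libraries are too small for a test of single outlying libraries.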

How the results depend on the processing

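Of 570 values of single members under alternatives, 522 kept their direction and their side of the threshold, 26 lost the call, 8 gained it with the same sign and 14 changed sign. The sign changed for MCL1 with MAPKi, with log2 fold changes of 0.01 with DESeq2's size factors, DESeq2, all genes or all 12 libraries and 0.11 with the GC correction with or without the block, and for BAX with Gln depletion, with 0.09 and 0.08 with the GC correction without and with the block and 0.01 in experimental batch 2 alone. With a library left out, MCL1 with MAPKi went from -0.02 to 0.03 and BAX with Gln depletion from -0.25 to 0.14. Among these changes of sign, MCL1 with MAPKi also gained the call with the block and the GC correction (adjusted p = 0.0257).

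The number of members lower with Gln depletion rose from 1 to 2 with DESeq2, the replicate block, the block with the GC correction, all 12 libraries and experimental batch 2 alone, and was from 1 to 2 with a library left out. The number higher was from 3 to 4. Of the genes of the 8 lists, 83 changed with MAPKi and 48 against the fold-change limit, and from 77 to 82 with a library left out. With Gln depletion 29 changed, and 19 against the fold-change limit, 16 at an adjusted p of 0.01, 65 with the replicate block, 61 with the block and the GC correction, 57 with all 12 libraries, 45 in experimental batch 2 alone and from 18 to 36 with a library left out (18 without CTRL medium replicate 2 and 19 without Gln-depleted replicate 2). The genes that differed between the experiments numbered 50, and 45 to 55 with a library left out, and the members 7, and 6 to 8.

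The BCL2L1 call with Gln depletion was lost against the fold-change limit (adjusted p = 0.192) and at 0.01. The BMF call without Gln was also gained with DESeq2 (-1.31, adjusted p = 0.0390) and without Gln-depleted replicate 1 (adjusted p = 0.0361), and with a library left out the value went from -1.88 to -0.70. The BAX difference gained the call with the block and the GC correction (-0.54, adjusted p = 9.1e-04), where BAK1 lost it (0.26, adjusted p = 0.0786). Per length of the longest coding sequence, the BH3-only share was 18.8% with DMSO, 59.4% with MAPKi and 17.9% in CTRL medium. In the MAPKi experiment the replicate block changed no call of a member, although every library correlated best with its own number. It changed no other member call with Gln depletion than that of BMF. The causes of these shifts were not tested.

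The main limits are 3 libraries per group, replicates of the Gln depletion experiment from 2 experimental batches, counts per gene that do not separate splice forms, overlapping genes, and a single time and dose. The sequencing batch differs between the experiments and cannot be told apart from them in levels, while each change was measured within a batch.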
